A study of Rattus norvegicus with 36 samples.

Results

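The high-salt response of the aorta was examined in 12 rats of the congenic strain S2Bb, 6 on a normal-salt diet (NSD) and 6 on a high-salt diet (HSD, 4% NaCl). They make up 12 of the 36 samples in the labels, 12 of the 34 columns in the deposited table and 12 of the 32 libraries that were analysed. The strain and diet labels alone decided which libraries entered each group. The comparison itself was chosen with earlier results of these data known. S2Bb, also written SBB, carries the middle segment of chromosome 2 of the salt-resistant Brown Norway (BN) rat on the background of the Dahl salt-sensitive strain SS. Both diet groups have this segment, so diet is the labelled difference between them. All animals were male, entered the diets at 4 to 6 weeks of age and were studied at 12 to 13 weeks, and small RNA was sequenced from 1 piece of the descending thoracic aorta of each. SS itself and S2Ba, which carries the distal BN portion of the chromosome, received the same diets (5 analysed libraries per group) and serve here only to test whether the response of S2Bb differed. A piece of aorta is a mixture of smooth muscle, endothelium, adventitia and blood, and in such bulk samples fewer cells of a type and less RNA per cell cannot be told apart. The labels name no litter, batch or pairing, and they do not give the bounds of the congenic segment.

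MicroRNAs are short RNAs that guide Argonaute proteins to messenger RNAs, which they recognise mainly through bases 2 to 8 of the mature strand, the seed. They are cut from hairpins, each of which can give 2 mature arms (5p and 3p), and neighbouring hairpins are often transcribed together as a cluster. In arteries, miR-143 and miR-145 mark contractile smooth muscle and miR-126 marks endothelium, while other microRNAs such as miR-146, miR-132 and miR-21 are known for their induction by inflammatory or growth signals.

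The mature sequences of the microRNAs on which the results turn are shown because relatives that share a seed were compared with each other below. They are RefSeq sequences of the rat assembly GRCr8, written 5′ to 3′ with the seed in capitals. Among the microRNAs that were higher on high salt, and their relatives, these were
miR-138-5p: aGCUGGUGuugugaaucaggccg
miR-132-3p: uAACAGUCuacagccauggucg
miR-212-3p: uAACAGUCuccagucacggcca
miR-212-5p: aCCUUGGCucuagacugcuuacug
miR-92b-3p: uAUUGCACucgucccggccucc
miR-92a-3p: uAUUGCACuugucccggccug
miR-25-3p: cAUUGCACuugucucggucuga
miR-146b-5p: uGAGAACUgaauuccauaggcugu
miR-146a-5p: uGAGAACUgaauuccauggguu

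Among those that were lower on high salt, and their relatives, they were
miR-204-5p: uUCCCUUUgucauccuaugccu
miR-211-5p: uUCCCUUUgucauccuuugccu
miR-26a-5p: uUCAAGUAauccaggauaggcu
miR-26b-5p: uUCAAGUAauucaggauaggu
miR-133b-3p: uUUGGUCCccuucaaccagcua
miR-133a-3p: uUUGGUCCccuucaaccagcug
miR-192-5p: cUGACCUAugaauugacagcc
miR-215: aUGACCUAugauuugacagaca
miR-145-5p: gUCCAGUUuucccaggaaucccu
miR-152-5p: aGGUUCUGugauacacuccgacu
miR-210-3p: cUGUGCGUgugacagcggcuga
miR-10a-5p: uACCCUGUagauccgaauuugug

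Over their compared length, the pair miR-204-5p and miR-211-5p differ at 1 base (A17U, counted from 1 at the 5′ end, with the base of miR-204-5p first), and miR-133b-3p and miR-133a-3p differ at 1 base (A22G, with the base of miR-133b-3p first). miR-26a-5p and miR-26b-5p differ at 2 bases over 21, miR-146b-5p and miR-146a-5p at 2 over 22, and miR-92b-3p and miR-92a-3p at 2 over 21. No source used here says how reads that match such near-identical microRNAs were assigned, so values of these pairs are uncertain to that extent. In GRCr8, miR-132-3p lies at chr10:60522091-60522112 on the plus strand and miR-212-3p at chr10:60521811-60521832 on the plus strand and their annotated spans are 200 bases apart. miR-204-5p lies at chr1:229743493-229743514 on the plus strand within the bounds of Trpm3, and miR-211-5p at chr1:127189353-127189374 on the plus strand within those of Trpm1. miR-92b-3p lies at chr2:176931663-176931684 on the minus strand, outside the bounds of any annotated host gene, and is the one among the 19 calls matched to RefSeq whose hairpins are all on chromosome 2. miR-145-5p lies at chr18:57370033-57370055 on the minus strand within the bounds of the long noncoding RNA Carmn. Gene bounds do not say whether a hairpin is exonic or intronic in a given transcript.

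On high salt, 29 of 484 microRNAs tested (5.99%) differed from normal salt in S2Bb aorta, 12 of them higher (2.48%) and 17 lower (3.51%). The 5 largest increases were those of miR-138-5p, miR-132-3p, miR-92b-3p, the unnamed miR-n68 and miR-30b-3p, and the higher calls included both arms of miR-212 and of miR-30d and miR-146b-5p. The 5 largest decreases were those of miR-204-5p and its relative miR-211-5p, miR-345-5p, miR-133b-3p and miR-152-5p, and the lower calls included miR-145-5p, miR-26a-5p and miR-10a-5p, which are among the abundant microRNAs of the aorta. Values are the deposited normalized reads per M reads (nRPM, with M for mega), and a microRNA was called where limma on log2(nRPM + 1) gave it an adjusted p (Benjamini-Hochberg) under 0.05 over all those reaching 1 nRPM in 5 or more libraries. Changes are differences of group means on that scale, which understates the change of rare microRNAs. The median change over all 484 was 0.031, and 77 had an unadjusted p under 0.05. Some of the 484 names have the same values as another name, as given below for the miR-n names. The 12 higher calls together held 0.356 ± 0.053% of the signal on normal and 0.606 ± 0.105% on high salt (SD, n = 6 each), and the 17 lower calls held 14.1 ± 1.44% and 10.7 ± 0.723%. The lower calls thus held more of the signal than the higher ones, and miR-145-5p, miR-26a-5p and miR-10a-5p held most of it. The values of the 6 normal-salt and 6 high-salt animals did not overlap for 18 of the 29 calls, 8 higher and 10 lower, against 23 of all 484 tested (4.75%). Rescaled to equal totals of listed microRNAs, 9 higher and 3 lower calls were made instead of 12 and 17. Under that scaling the median change of all tested microRNAs was 0.119, and 8 of the 12 higher calls and 3 of the 17 lower calls (miR-204-5p, miR-152-5p and miR-211-5p) passed. No call changed sign, and the median change of the 17 lower calls was -0.69 as deposited and -0.56 rescaled, and that of the 12 higher calls 0.98 and 1.07.

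**Figure D1:**
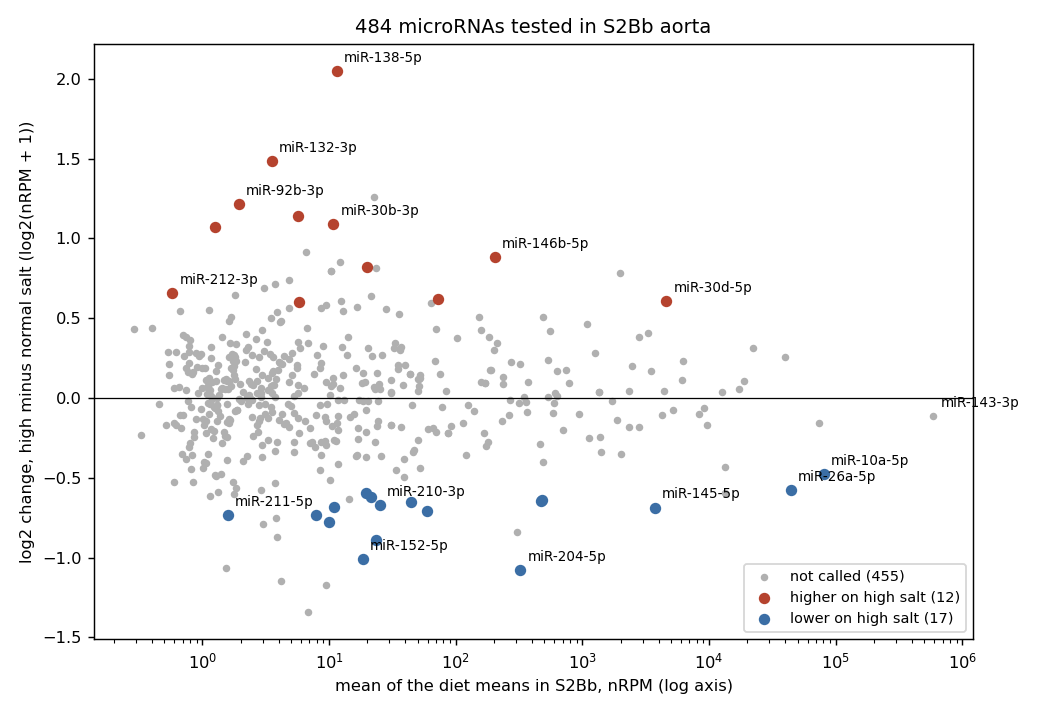
Each point is 1 of 484 microRNAs, with the mean of the diet means in S2Bb on a log axis (nRPM) and the log2 change on high salt on the vertical axis. Red points are the 12 higher and blue points the 17 lower calls. Most higher calls lie below 100 nRPM, whereas lower calls reach from miR-211-5p to miR-10a-5p at the abundant end.

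Recovered depth was 27.2 ± 8.52 M reads on normal and 20.1 ± 2.29 M reads on high salt (SD, n = 6 each; exact permutation test, two-sided, p = 0.0476), and ranged from 16.3 to 42.4 M. The part of depth in the results was not tested, since the rescaled fits change the factor of each library and not its number of reads. The share of the signal in miR-143-3p, the most abundant microRNA, did not separate the diets (56.0 ± 3.49% and 56.5 ± 1.65%, exact permutation test, two-sided, p = 0.777). Diet also follows the animal numbers that the titles give, since every normal-salt animal has a lower number than 4 of the high-salt animals. High-salt replicates 2 and 3 have the lowest numbers of all 12. With replicates 2 and 3 left out, 13 calls were made, 8 higher and 5 lower. The 29 calls, chosen with all 6 high-salt animals, had the same direction in these 2 animals and in the other 4. Their median size of change was 0.777 in the 2 and 0.725 in the other 4. Leaving out 1 library at a time gave 18 to 31 calls, with 18 without normal-salt replicate 5 (8 higher, 10 lower), high-salt replicate 2 (10 higher, 8 lower) or high-salt replicate 4 (8 higher, 10 lower). Of the 29 calls, 9 passed in all 24 alternative fits that tested them: miR-138-5p, miR-132-3p, miR-92b-3p, miR-30b-3p, miR-30d-3p, miR-146b-5p, miR-211-5p, miR-212-5p and miR-204-5p (the fit for a mean of at least 10 nRPM left out the rarer ones). Another 15 lost the call without at least 1 library.

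miR-138-5p, a microRNA known for its abundance in brain, showed the largest change of the 484. It stood at 2.51 to 4.23 nRPM (median 3.26) in the normal-salt animals and at 6.22 to 44.4 nRPM (median 16.7) in the high-salt animals. Every high-salt S2Bb animal was above every normal-salt S2Bb animal (log2 change 2.05, SE 0.37, adjusted p = 0.00116). Replicate 1 (44.4 nRPM) was the highest and replicate 5 (6.22 nRPM) the lowest of the high-salt animals. On normal salt, miR-138-5p ranged from 3.44 to 9.59 nRPM in SS and from 6.998 to 39.3 nRPM in S2Ba. The S2Bb high-salt values thus overlapped normal-salt values of both other strains. All normal-salt S2Bb values lay below those of S2Ba. miR-138-5p was the one call among 5 tested members of the neuronal list, against 5.99% called over all 484. The other members were miR-128-3p (0.64, adjusted p = 0.0665), miR-338-3p (0.56, 0.24), miR-338-5p (0.35, 0.334) and miR-9a-5p (-0.011, 0.986). The median change of the list was 0.56. Summed over the list, the signal ranged from 43.3 to 69.5 nRPM on normal and from 62.02 to 128 nRPM on high salt. Of the 11 list members with deposited values, only miR-137-3p was at 0 in all 12 libraries. The part of nerve tissue in these values was not tested.

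miR-132 and miR-212 are neighbouring hairpins on chromosome 10 that CREB and growth signals are known to induce together. All 3 of their tested arms were higher on high salt. miR-132-3p ranged from 0.637 to 2.11 nRPM (median 1.13) on normal to 1.85 to 9.57 nRPM (median 4.94) on high salt. High-salt replicate 6 (1.85 nRPM) lay within the normal-salt range and the other 5 lay above it (log2 change 1.48, SE 0.33, adjusted p = 0.00438). miR-212-5p stood at 0.199 to 0.598 nRPM (median 0.473) and 1.21 to 3.57 nRPM (median 1.995), with no overlap (log2 change 1.07, SE 0.22, adjusted p = 0.0032). miR-212-3p, which has the seed of miR-132-3p, was rarer, at 0.0796 to 0.283 nRPM (median 0.187) and 0.283 to 2.04 nRPM (median 0.947). Its groups did not overlap (log2 change 0.66, SE 0.20, adjusted p = 0.0408), but it rested on as few as 2 reads in a normal-salt library, where 3 reads amount to 0.0769 to 0.212 nRPM, and it lost the call in 10 of the 12 fits that left out 1 library each (adjusted p up to 0.155 with 1 library left out). The ratio of miR-212-5p to miR-132-3p was 0.261 to 0.667 in the normal-salt and 0.26 to 0.656 in the high-salt libraries, which overlapped.

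Among microRNAs linked to inflammation, miR-146b-5p and miR-223-3p were also higher. miR-146b-5p belongs to a family that NF-kB induces and that represses the adaptors TRAF6 and IRAK1. It ranged from 90.1 to 199 nRPM (median 150.3) to 209.9 to 332 nRPM (median 257), with every high-salt animal above the highest normal-salt animal (log2 change 0.88, SE 0.18, adjusted p = 0.00245). miR-146a-5p, with the same seed and another chromosomal origin, stood at 83.5 to 176 nRPM (median 122) and 133 to 199 nRPM (median 181). Its groups overlapped and it was not called (log2 change 0.51, SE 0.24, adjusted p = 0.274). miR-223-3p, a microRNA of myeloid cells, ranged from 3.59 to 5.53 nRPM (median 4.14) to 4.96 to 11.1 nRPM (median 6.18), with 5 of 6 high-salt animals above the normal-salt range (log2 change 0.60, SE 0.18, adjusted p = 0.0376), and lost the call in 6 of the 12 fits that left out 1 library each (adjusted p up to 0.136 with 1 library left out). Of the 17 tested members of the inflammation list 5 rose (the 3 arms of miR-132 and miR-212, miR-146b-5p and miR-223-3p), 2 fell (miR-221-5p and miR-31a-3p) and 10 were not called, and 11 had an unadjusted p under 0.05, against 5.99% called and 15.9% at an unadjusted p under 0.05 over all 484. The 3 arms of miR-132 and miR-212 come from 1 cluster. The median change was 0.41, against 0.031 over all microRNAs tested. The lists were chosen with earlier results of these data known, so these shares describe the list and are no independent support. miR-21-5p, induced in many inflamed and fibrotic tissues, was at 2855 ± 852 nRPM on normal and 3768 ± 912 nRPM on high salt (SD, n = 6 each) (log2 change 0.41, SE 0.22, adjusted p = 0.36), and its other arm miR-21-3p at 11.3 ± 4.96 nRPM on normal and 34.4 ± 33.996 nRPM on high salt (SD, n = 6 each) (log2 change 1.26, SE 0.40, adjusted p = 0.056), and neither was called. miR-155-5p, another microRNA of activated immune cells, was not analysed here. The white blood cell list, which was summed to 196 to 322 nRPM on normal and 275 to 334 nRPM on high salt, had 1 call (miR-223-3p) among 5 tested members, against 5.99% over all 484, and a median change of 0.27. Its other members were miR-142-5p (0.15, adjusted p = 0.783), miR-142-3p (0.27, 0.611), miR-150-5p (-0.18, 0.825) and miR-146a-5p, which is on both lists. The part of white blood cells in the inflammation list was not tested.

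**Figure D2:**
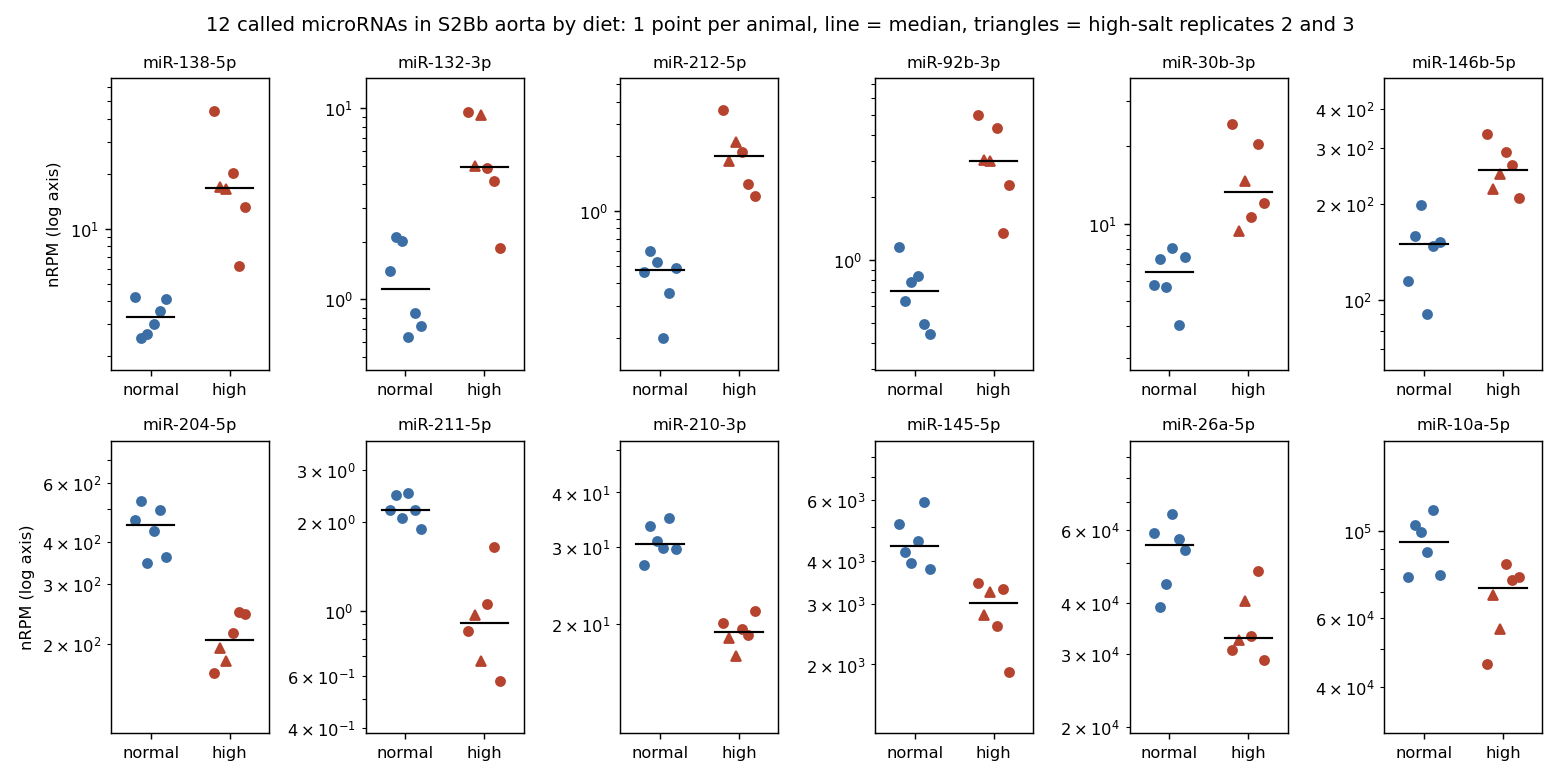
Each panel is 1 called microRNA, with a point per S2Bb animal (nRPM, log axis) and a line at the group median. The upper row holds 6 higher and the lower row 6 lower calls, and triangles mark high-salt replicates 2 and 3. The diets separate fully for miR-138-5p, miR-92b-3p, miR-212-5p, miR-30b-3p, miR-146b-5p, miR-204-5p, miR-211-5p, miR-210-3p and miR-145-5p, and overlap for miR-132-3p, miR-26a-5p and miR-10a-5p.

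The miR-30 family, which shares 1 seed among its 5p arms and is abundant in heart and endothelium, was called for 3 of 11 tested arms, all higher, against 2.48% called higher over all 484, and 2 of the 3 are arms of 1 hairpin. miR-30d-5p ranged from 3330 to 4149 nRPM (median 3576) to 4488 to 6708 nRPM (median 5446), and miR-30d-3p from 9.87 to 18.3 nRPM (median 14.3) to 20.98 to 30.3 nRPM (median 25.8). Neither overlapped between diets, so that both arms of 1 hairpin were higher (log2 change 0.61, SE 0.15, adjusted p = 0.00991 for the 5p arm; log2 change 0.82, SE 0.19, adjusted p = 0.00983 for the 3p arm). miR-30d-5p did not pass without high-salt replicates 2 and 3 (adjusted p = 0.0948), the one alternative under which it was lost. miR-30b-3p likewise did not overlap, at 4.04 to 8.08 nRPM (median 6.51) against 9.35 to 24.5 nRPM (median 13.3) (log2 change 1.09, SE 0.27, adjusted p = 0.0127), but its more abundant arm miR-30b-5p was at 205 to 274 nRPM (median 237) and 130.2 to 318 nRPM (median 213) and was not called (log2 change -0.14, SE 0.24, adjusted p = 0.827). The most abundant member, miR-30a-5p, was also not called (16890 ± 1708 nRPM on normal and 17584 ± 1798 nRPM on high salt (SD, n = 6 each); log2 change 0.058, SE 0.14, adjusted p = 0.884), nor were miR-30c-5p (-0.34, adjusted p = 0.337) and miR-30e-5p (-0.14, 0.721). The ratio of miR-30d-5p to miR-30a-5p was 0.167 to 0.258 on normal and 0.256 to 0.392 on high salt, so high-salt replicate 5 alone lay within the normal-salt range. The median change of the 11 arms was 0.18.

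miR-92b-3p, which has the seed of miR-92a-3p and miR-25-3p of the miR-17-92 and miR-106b-25 clusters, ranged from 0.444 to 1.15 nRPM (median 0.714) to 1.36 to 4.97 nRPM (median 3.001). The groups did not overlap (log2 change 1.22, SE 0.27, adjusted p = 0.00438). Of its relatives, miR-92a-3p was at 42.3 to 57.3 nRPM (median 49.4) and 47.2 to 121 nRPM (median 75.3) (log2 change 0.60, SE 0.25, adjusted p = 0.178), and miR-25-3p at 293 to 426 nRPM (median 339) and 320.0 to 392 nRPM (median 338) (log2 change 0.006, SE 0.11, adjusted p = 0.983), and neither was called. In each high-salt library the ratio of miR-92b-3p to miR-92a-3p (0.0288 to 0.0566) exceeded every normal-salt value (0.00865 to 0.023). Of the 8 tested microRNAs whose hairpins are all on chromosome 2, where S2Bb carries BN sequence in the middle segment, miR-92b-3p was the one called. The other 7 had changes of -0.092 to 0.38 and adjusted p of 0.243 or more, among them miR-16-5p (0.046) and miR-186-5p (-0.092). Both diet groups carry the same segment, and no source used here says whether miR-92b lies inside it.

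In smooth muscle, miR-143 and miR-145 are transcribed from 1 precursor and promote the contractile state, miR-145-5p in part by repressing KLF4 and KLF5. miR-145-5p was lower on high salt, at 3783 to 5930 nRPM (median 4406) on normal and 1899 to 3437 nRPM (median 3016) on high salt. The highest high-salt animal was below the lowest normal-salt animal (log2 change -0.69, SE 0.20, adjusted p = 0.0379). The call was lost in 7 of the 12 fits that left out 1 library each, with an adjusted p of up to 0.113, and under the rescaling to equal totals. Its other arm miR-145-3p was at 1936 to 2961 nRPM (median 2231) and 1768 to 3352 nRPM (median 2768) and was not called (log2 change 0.20, SE 0.22, adjusted p = 0.727). The ratio of the 5p to the 3p arm was 1.43 to 2.83 on normal and 0.566 to 1.94 on high salt. The neighbouring miR-143-3p was at 612339 ± 85425 nRPM on normal and 565246 ± 73228 nRPM on high salt (SD, n = 6 each) (log2 change -0.11, SE 0.19, adjusted p = 0.825) and miR-143-5p at 65.1 ± 11.3 nRPM on normal and 56.5 ± 7.77 nRPM on high salt (SD, n = 6 each) (log2 change -0.20, SE 0.14, adjusted p = 0.556), and neither was called. The 4 smooth muscle arms thus held 1 call, against 5.99% over all 484, with a median change of -0.16.

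miR-126 lies within the endothelial gene Egfl7 and restrains VCAM1 in endothelial cells. miR-126a-5p ranged from 1162 to 2335 nRPM (median 1326) on normal to 1965 to 3068 nRPM (median 2537) on high salt. Normal-salt replicate 6, at 2335 nRPM, lay within the high-salt range and the other 5 normal-salt animals lay below it. The change did not pass the threshold (log2 change 0.78, SE 0.25, adjusted p = 0.0515), and it passed in 7 of 24 alternative fits, whose adjusted p ran from 0.00594 to 0.156. Those that passed were the fits without normal-salt replicate 6 (limma adjusted p = 0.02), without high-salt replicate 5 (0.0429), without SS high-salt replicate 2 (0.0137), with the S2Bb libraries alone (0.00594), for a mean of at least 10 nRPM (0.0284), and with edgeR (0.0476) or DESeq2 (0.0365) on recovered reads. Its other arm miR-126a-3p was at 209 to 356 nRPM (median 279) and 191 to 323 nRPM (median 258) and was not called (log2 change -0.10, SE 0.18, adjusted p = 0.841). The ratio of the 5p to the 3p arm was 4.29 to 6.67 on normal and 7.23 to 16.02 on high salt, with no overlap, although miR-126a-5p was picked for this ratio after its values were seen.

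miR-204-5p, an intronic microRNA of Trpm3 known to repress Runx2, showed the largest decrease among the calls. The normal-salt animals ranged from 346 to 530.2 nRPM (median 448) and the high-salt animals from 164 to 248 nRPM (median 205). No high-salt animal reached the lowest normal-salt value (log2 change -1.08, SE 0.19, adjusted p = 0.00116). miR-211-5p, which has its seed, was lower as well, at 1.9 to 2.51 nRPM (median 2.2) against 0.577 to 1.64 nRPM (median 0.91) with no overlap (log2 change -0.73, SE 0.15, adjusted p = 0.0032). Both passed in each alternative that tested them. The level of miR-204-5p was 168 to 227 times that of miR-211-5p on normal and 151 to 424 times on high salt. Whether reads of the abundant one were counted for the rare one was not tested.

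Several called arms were lower while a relative of the same hairpin, cluster or seed was not called, as the plot of relatives shows. miR-152-5p, the rarer arm of a hairpin within the bounds of Copz2, fell from 20.7 to 28.6 nRPM (median 24.1) to 7.99 to 20.98 nRPM (median 11.2), with replicate 5 (20.98 nRPM) just inside the normal-salt range (log2 change -1.01, SE 0.27, adjusted p = 0.0188). The call was lost without high-salt replicate 1, without high-salt replicate 4, and without replicates 2 and 3 together (adjusted p up to 0.0764). miR-152-3p was at 249 to 466 nRPM (median 301) and 289 to 348 nRPM (median 306) (log2 change -0.029, SE 0.12, adjusted p = 0.938). miR-133b-3p, best known from skeletal muscle, fell from 20.8 to 44.2 nRPM (median 30.9) to 8.82 to 21.2 nRPM (median 16.7), with 5 of 6 high-salt animals below the normal-salt range (log2 change -0.89, SE 0.22, adjusted p = 0.0113). The call of miR-133b-3p was lost under the rescaling to equal totals (limma adjusted p = 0.0979). The near-identical miR-133a-3p stood at 549 to 664 nRPM (median 579.8) and 557 to 653 nRPM (median 610.2) (log2 change 0.029, SE 0.16, adjusted p = 0.941). The striated muscle list held this 1 call among 4 tested members, against 5.99% over all 484, and summed to 584 to 713 nRPM on normal and 582 to 672 nRPM on high salt. miR-345-5p fell from 9.56 to 16.9 nRPM (median 12.4) to 5.7 to 8.55 nRPM (median 6.95) with no overlap (log2 change -0.78, SE 0.19, adjusted p = 0.00991), and its ratio to miR-345-3p was 0.954 to 1.34 on normal and 0.528 to 0.881 on high salt, again with no overlap. The call of miR-345-5p was lost under the rescaling to equal totals and without high-salt replicates 2 and 3 (limma adjusted p up to 0.142).

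miR-192-5p, a microRNA abundant in liver and kidney, fell from 472 to 643 nRPM (median 605) to 314 to 487 nRPM (median 366), and high-salt replicate 5 alone lay within the normal-salt range (log2 change -0.64, SE 0.17, adjusted p = 0.0167). Its cluster partner miR-194-5p, 100 bases away, was at 17.01 to 33.9 nRPM (median 22.99) and 21.2 to 32.8 nRPM (median 22.8) (log2 change 0.059, SE 0.17, adjusted p = 0.9). A hairpin on chromosome 13 gives the same mature sequence, so the level of miR-194-5p cannot be assigned to this cluster alone. miR-215, with the seed of miR-192-5p, was at 0.779 to 1.54 nRPM (median 1.1) and 0.98 to 2.997 nRPM (median 2.1) (log2 change 0.48, SE 0.39, adjusted p = 0.613), and neither was called. The call of miR-192-5p was lost without high-salt replicate 2 (adjusted p = 0.0538), without replicates 2 and 3 together and under the rescaling to equal totals (adjusted p up to 0.0939). The unnamed miR-n178 had 0.973 to 0.989 times the value of miR-192-5p in all 12 libraries, and its change was -0.65 (adjusted p = 0.0167). Similarly, miR-n266 was at 1.19 to 1.48 times miR-n260 in each library, with changes of -0.71 and -0.65 (adjusted p = 0.0127 and 0.0122). No source used here defines the miR-n names, and whether these pairs share reads was not tested. The other miR-n calls were miR-n68 (from 1.64 to 5.997 nRPM (median 2.55) to 3.86 to 14.98 nRPM (median 7.18)), miR-n156 (from 47.6 to 62.7 nRPM (median 56.1) to 58.9 to 114 nRPM (median 89.3)) and miR-n220 (from 4.95 to 19.2 nRPM (median 9.62) to 3.92 to 7.35 nRPM (median 5.31)), with adjusted p of 0.0408, 0.031 and 0.0403. They lost the call in 9, 6 and 9 of the 12 fits that left out 1 library each, with adjusted p of up to 0.141, 0.101 and 0.156.

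**Figure D3:**
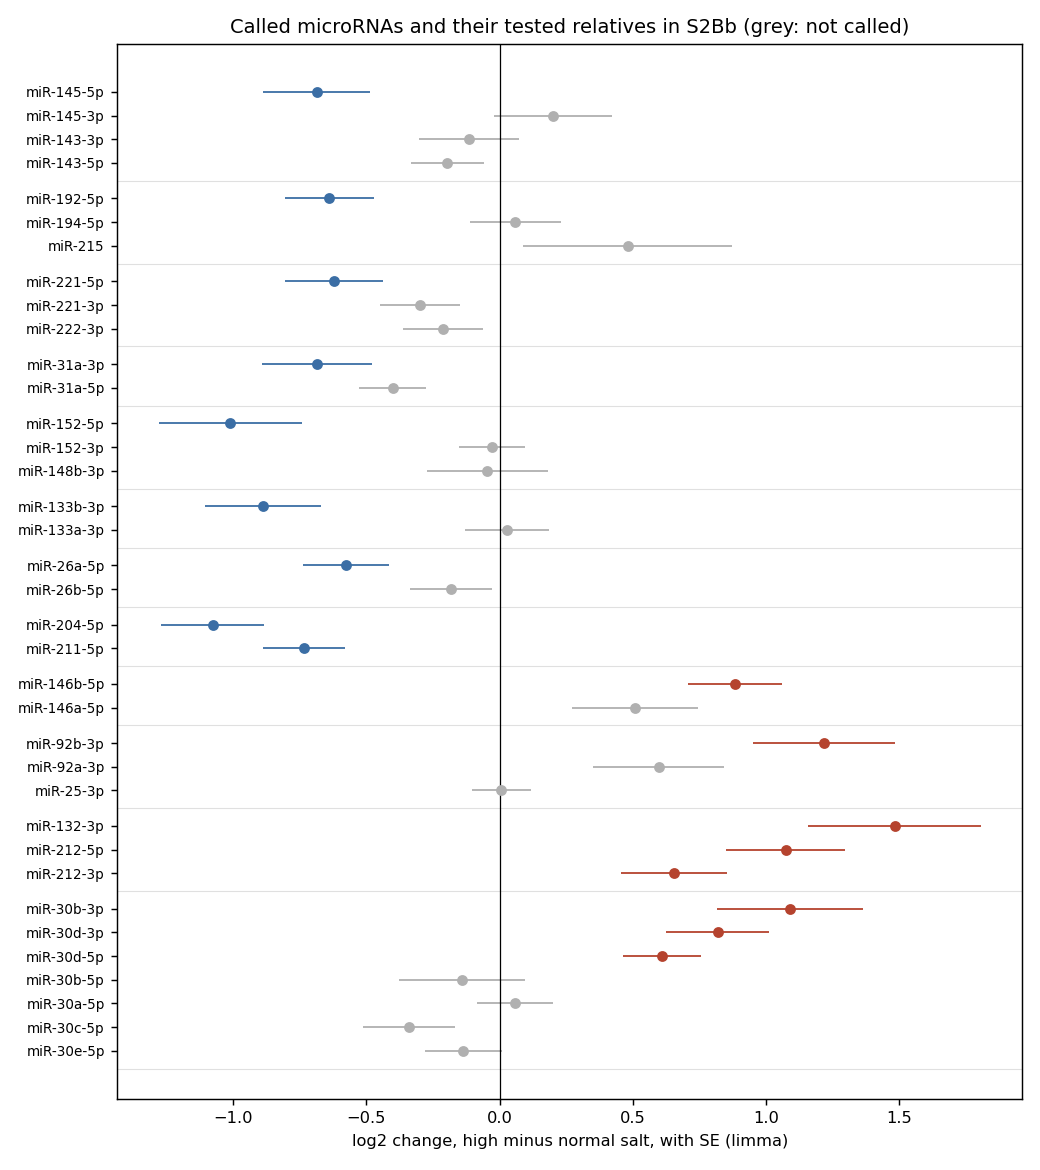
Log2 change on high salt with its SE (limma) for called microRNAs and relatives of the same hairpin, cluster or seed. Red marks called higher, blue called lower and grey not called. The 3 arms of miR-132 and miR-212 and both of miR-204-5p and miR-211-5p are called together, whereas miR-145-5p, miR-152-5p, miR-133b-3p and miR-192-5p each stand beside relatives that were not called, of which miR-215 is at 0.48.

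miR-221-5p comes from the cluster of miR-221 and miR-222, which in rat promotes smooth muscle proliferation by repressing p27. Its seed differs from the one that miR-221-3p and miR-222-3p share. miR-221-5p fell from 21.1 to 33.9 nRPM (median 26.3) to 14.2 to 19.96 nRPM (median 16.2) with no overlap (log2 change -0.62, SE 0.18, adjusted p = 0.0384). Its abundant arm miR-221-3p was at 156 to 269 nRPM (median 181) and 128 to 189 nRPM (median 151.7) (log2 change -0.30, SE 0.15, adjusted p = 0.331), and miR-222-3p at 62.8 to 90.4 nRPM (median 72.8) and 57.2 to 74.2 nRPM (median 63.1) (log2 change -0.21, SE 0.15, adjusted p = 0.556). miR-31a-3p fell from 11.9 to 18.7 nRPM (median 12.7) to 6.34 to 10.5 nRPM (median 7.92), also with no overlap (log2 change -0.69, SE 0.21, adjusted p = 0.0408), and miR-31a-5p, at 441 to 635 nRPM (median 575) and 353 to 522 nRPM (median 398), came close to the threshold (log2 change -0.40, SE 0.13, adjusted p = 0.0515). The calls of miR-221-5p and miR-31a-3p were lost in 8 and 10 of the 12 fits that left out 1 library each, with adjusted p of up to 0.104 and 0.131. miR-455-5p fell from 18.9 to 30.4 nRPM (median 23.7) to 13.2 to 17.98 nRPM (median 15.2) with no overlap (log2 change -0.59, SE 0.17, adjusted p = 0.0296). Its other arm miR-455-3p, which lies within the bounds of the collagen gene Col27a1, had a change of similar size that did not pass (log2 change -0.63, SE 0.21, adjusted p = 0.0618). The call of miR-455-5p was lost in 5 of those 12 fits, with an adjusted p of up to 0.0948.

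Both miR-10a-5p and miR-26a-5p were lower on high salt. miR-10a-5p, encoded in a Hox cluster, stood at 76418 to 113182 nRPM (median 94133) on normal and 45881 to 82676 nRPM (median 71858) on high salt. It held 8.54% of the signal on normal and 6.73% on high salt, and 4 high-salt animals lay below the normal-salt range (log2 change -0.48, SE 0.14, adjusted p = 0.0382). miR-10b-5p of another Hox cluster was at 61633 to 94925 nRPM (median 73670) and 35486 to 113708 nRPM (median 70500), with a wider range on high salt, and was not called (log2 change -0.16, SE 0.19, adjusted p = 0.769). miR-26a-5p, within the bounds of the phosphatase gene Ctdspl, stood at 38959 to 65562 nRPM (median 55286) on normal and 29040 to 47709 nRPM (median 32909) on high salt, with 4 high-salt animals below the normal-salt range (log2 change -0.58, SE 0.16, adjusted p = 0.0304). Its relative miR-26b-5p was at 2445 to 3447 nRPM (median 3016) and 2411 to 2967 nRPM (median 2623) (log2 change -0.18, SE 0.15, adjusted p = 0.619). The calls of miR-10a-5p and miR-26a-5p were lost in 6 and 7 of the 12 fits that left out 1 library each (adjusted p up to 0.141 and 0.0759). miR-27b-3p, the fifth most abundant microRNA, was not called (36412 ± 4563 nRPM on normal and 43238 ± 1336 nRPM on high salt (SD, n = 6 each); log2 change 0.26, SE 0.14, adjusted p = 0.385).

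miR-210-3p, which HIF1 induces when oxygen is low, fell from 27.3 to 34.98 nRPM (median 30.4) to 16.8 to 21.4 nRPM (median 19.1). All 6 high-salt animals lay below all 6 normal-salt animals (log2 change -0.67, SE 0.13, adjusted p = 0.00194), and the call held whichever 1 library was left out. It was lost under the rescaling to equal totals (limma adjusted p = 0.0698). On normal salt, miR-210-3p ranged from 20.8 to 30.3 nRPM in SS and from 17.9 to 20.1 nRPM in S2Ba. The S2Bb high-salt values thus overlapped normal-salt values of both other strains. Other lists showed few or no calls. In the fibrosis list 0 of 12 tested members were called by limma, 3 had an unadjusted p under 0.05, and the median change was 0.042, with miR-199a-3p at 0.045 and miR-29a-3p at 0.42. The let-7 family had 0 calls among 8 tested members, 0 of them with an unadjusted p under 0.05, and changes from -0.25 to 0.10. Its most abundant members were let-7c-5p (-0.17) and let-7f-5p (-0.063). The miR-23/27/24 clusters had 0 calls among 9 (3 at an unadjusted p under 0.05, median 0.18), and the miR-17-92 clusters 0 among 9 (3 at an unadjusted p under 0.05, median 0.006). The epithelial list had 0 calls among 6, with miR-205 at 0.26 and miR-203a-3p at -0.26, and the fat list 0 among 3, where miR-365-3p had a change of 0.045 and miR-378a-3p one of 0.039.

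The red blood cell microRNAs miR-451-5p, miR-144-3p and miR-144-5p set 1 library apart. Summed, they reached 70.5 nRPM in normal-salt replicate 5 against 6.10 to 8.80 nRPM in the other normal-salt libraries and 2.61 to 14.7 nRPM on high salt. miR-451-5p was 59.3 nRPM in that animal, 5.07 to 7.05 nRPM in the others on normal salt and 1.96 to 11.4 nRPM on high salt, and it was not called (log2 change -1.17, SE 0.58, adjusted p = 0.331; log2 change -0.65, adjusted p = 0.667 without that library). The same animal had the highest values of the normal-salt group for miR-148b-3p and the lower calls miR-31a-3p, miR-n220, miR-n266 and miR-n260. This also held for the lower calls miR-133b-3p, miR-345-5p, miR-145-5p, miR-210-3p, miR-455-5p and miR-10a-5p. Its median deviation for the 17 lower calls was 0.296, against -0.190 to 0.0209 in the other normal-salt animals. Its depth, 16.3 M reads, was the lowest of the 12 libraries. The part of blood in these values was not tested, and the fit without that library made 18 calls, 17 of them among the 29.

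Within the high-salt group the size of the response varied between animals, as the plot of deviations shows. Each high-salt animal had 9 to 12 of the 12 higher calls above the whole normal-salt range, and 12 to 17 of the 17 lower calls below it. Replicate 1 exceeded the range for all 12 and all 17, with a median deviation of 1.52 for the higher calls. Replicate 6 had the smallest median deviation of the higher calls, 0.542, and the largest decrease of the lower calls, -0.849. Replicate 5 had the smallest decrease of the lower calls, -0.451. These deviations are those of microRNAs chosen by the same contrast and describe its spread.

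**Figure D4:**
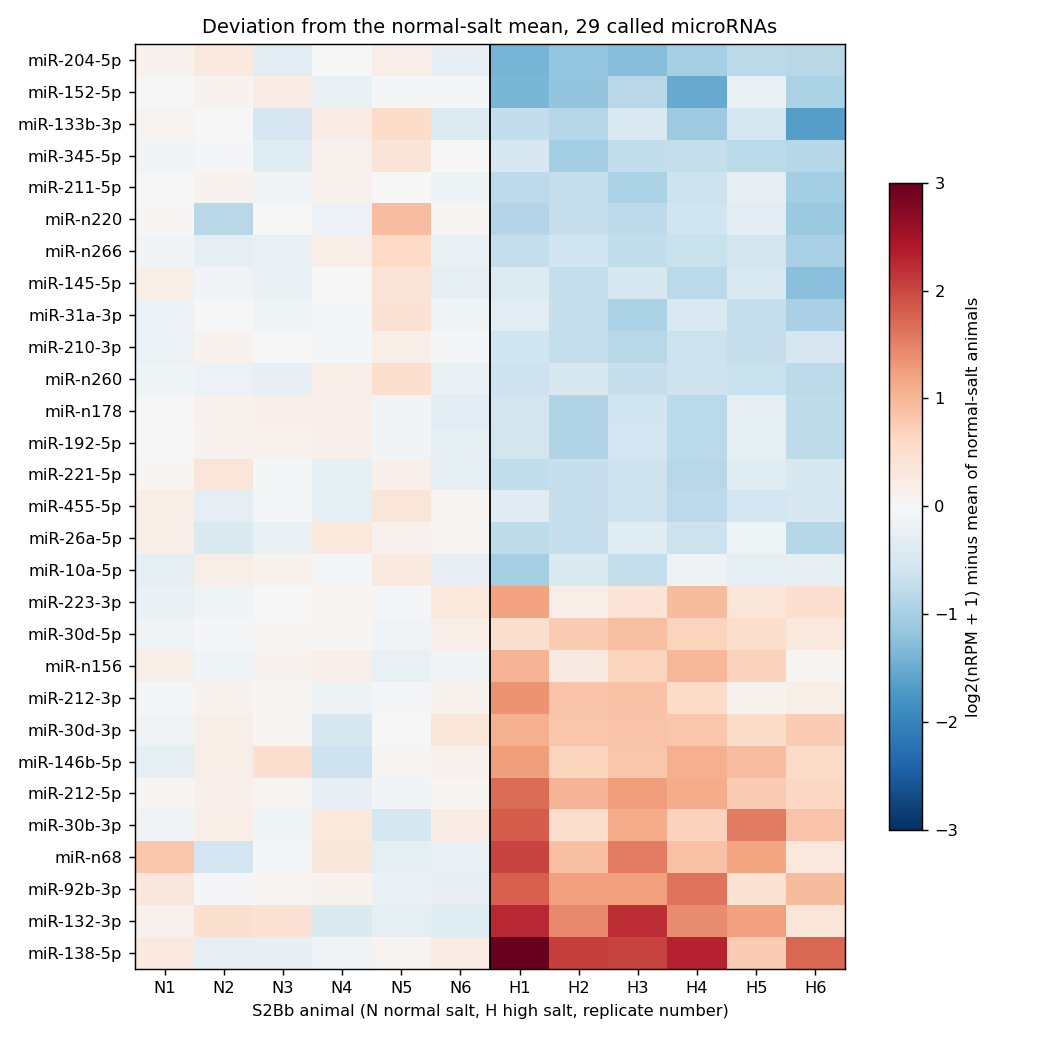
Rows are the 29 calls and columns the 12 animals, normal salt (N1 to N6) left and high salt (H1 to H6) right of the black line. Colour gives log2(nRPM + 1) minus the mean of the normal-salt animals, with red above and blue below 0. H1 is the darkest column for the higher calls, and N5 holds the highest normal-salt values for several lower calls such as miR-n220 and miR-n266.

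The same diets gave 5 calls in SS (1.03%) and 4 in S2Ba (0.826%), each with 5 against 5 libraries. SS high-salt replicate 2 held only 2.31 M reads, the fewest of the 32 libraries, where 3 reads amount to 0.941 nRPM. In it 338 names were at 0, and miR-143-3p held 31.7% of the reads, the lowest share of all. This library was kept in the SS values and in the shared fit, which limits both. Of the 29 microRNAs called in S2Bb, 24 had the same sign in SS, 11 of the 12 higher and 13 of the 17 lower, and 1, miR-30b-3p, was called there (from 4.44 to 12.5 nRPM to 7.59 to 29.4 nRPM). In S2Ba 27 had the same sign, 12 of 12 and 15 of 17, and miR-132-3p, miR-212-5p and miR-n156 were called. miR-132-3p ranged in S2Ba from 1.05 to 3.29 nRPM on normal to 3.82 to 22.3 nRPM on high salt. Over all 484 tested, 61.4% had the same sign in SS as in S2Bb and 62.4% in S2Ba. The median size of the change of the 29 was 0.708 in S2Bb, the comparison that chose them, 0.320 in SS and 0.346 in S2Ba. The tests of the difference are the ones that bear on S2Bb itself. The response of S2Bb differed from that of SS for 2 microRNAs (0.413%) and from that of S2Ba for 0 (0%) by limma, with 46 and 20 at an unadjusted p under 0.05, and for 0 by edgeR and 1 by DESeq2 against S2Ba. Against SS the count was 3 by edgeR and 8 by DESeq2, and 0 by limma without high-salt replicates 2 and 3. SS and S2Ba had fewer libraries, and a missing call does not show that the strains responded alike. For some lower calls the normal-salt mean was higher in S2Bb than in SS and S2Ba. It was 26.4, 16.3 and 14.6 nRPM for miR-221-5p, against 16.7 nRPM in S2Bb on high salt. For miR-31a-3p it was 13.6, 8.40 and 9.63 nRPM, against 8.12 nRPM. Not all were so, as miR-145-5p was at 4599, 4556 and 4477 nRPM, against 2879 nRPM. Strain differences on normal salt were not tested.

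**Figure D5:**
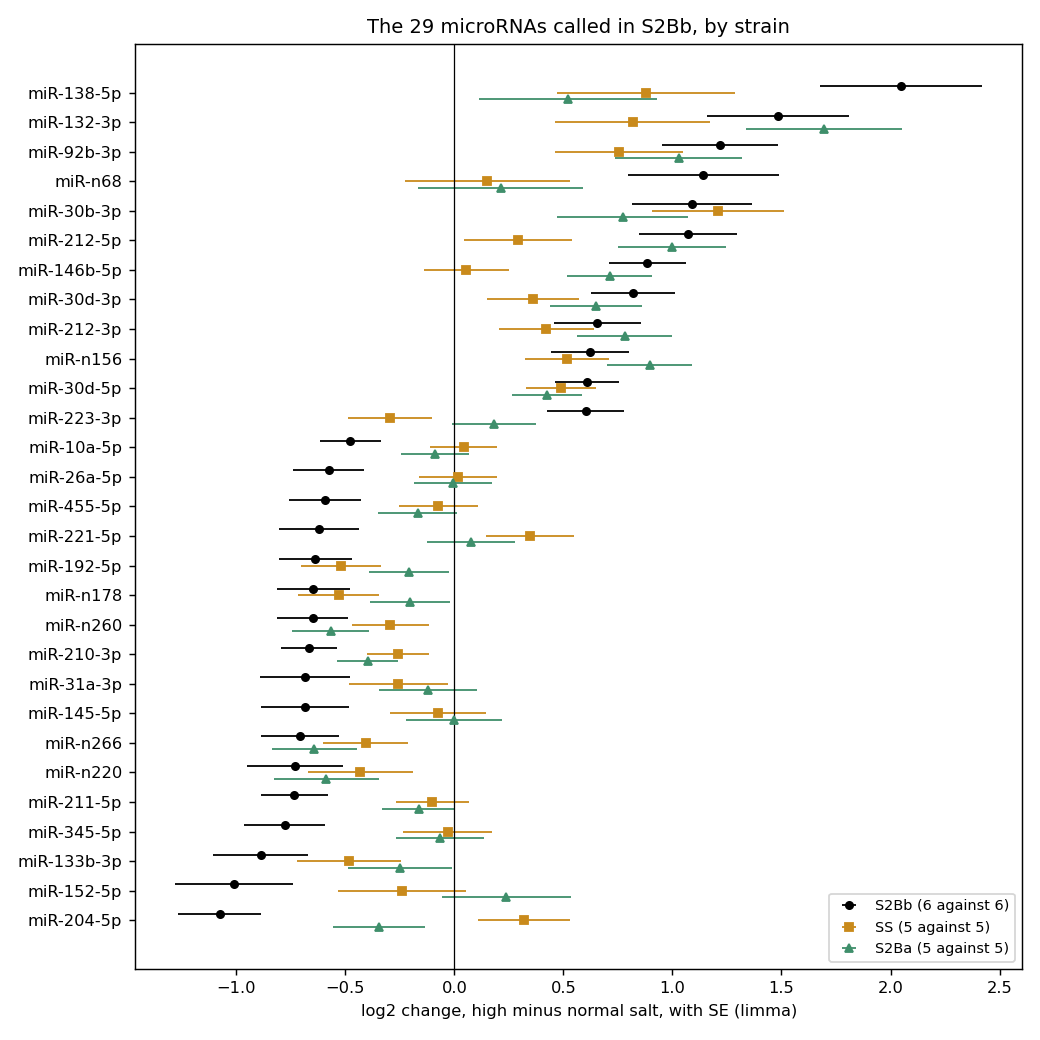
Log2 change on high salt with its SE (limma) of the 29 microRNAs called in S2Bb, in S2Bb (black), SS (orange) and S2Ba (green). miR-132-3p, miR-92b-3p and miR-30d-5p have similar changes in more than 1 strain, and miR-204-5p is above 0 in SS and below 0 in both congenic strains.

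miR-204-5p was the one call whose response differed from that of SS (difference -1.40, adjusted p = 0.0130). In SS it ranged from 144 to 362 nRPM on normal and from 259 to 407 nRPM on high salt (log2 change 0.32, SE 0.21). In S2Ba it ranged from 180.0 to 275 nRPM and 109 to 229 nRPM (-0.35, SE 0.21). The normal-salt level was thus high in S2Bb, where 5 of the 6 animals exceeded the highest normal-salt SS value, and its high-salt level lay within the span of the other strains. The difference from SS passed in 22 of 23 alternatives and was lost without high-salt replicates 2 and 3 (adjusted p = 0.0821). miR-196b-5p of a Hox cluster was the other microRNA whose response differed from SS (difference 3.07, adjusted p = 0.0369). It was 4.63 to 11.2 nRPM (median 7.7) and 8.001 to 26.6 nRPM (median 16.1) in S2Bb and was not called there (log2 change 0.85, SE 0.48, adjusted p = 0.406). In SS it ranged from 9.89 to 210.0 nRPM on normal to 6.17 to 35.5 nRPM on high salt (log2 change -2.22, adjusted p = 0.0318). This difference passed in 11 of 23 alternatives and in 4 of the 12 fits that left out 1 S2Bb library, with an adjusted p of up to 0.0909 among those.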

How the data were processed

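Small RNA of rat aorta was sequenced in single-end reads of 51 bp from libraries of 1 microgram total RNA (RNA integrity number of at least 8), aiming at 30 M reads each, per the labels' protocols. Per the submitters' processing notes, edgeR 3.6.8, STAR 2.3.1, bcl2fastq 1.8.4, R 3.2.3 and FastQC were used, and no source used here gives their roles, the genome build, the annotation or the normalization. The deposited signal is a normalized value for 835 names in 34 columns, printed here as nRPM. Dividing each column by its smallest step gave whole numbers for 100% of values (tolerance 1e-06), and these were taken as reads.

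Columns were matched to samples by animal number. The columns of S2Ba normal-salt replicate 4 and SS normal-salt replicate 1 are identical and were left out, which leaves 32 libraries. No S2Bb column was affected. All 6 groups were fitted together in limma 3.58.1 (R 4.3.3) with an intensity trend, on log2(nRPM + 1), over the 484 microRNAs that reached 1 nRPM in 5 or more libraries. Calls have a Benjamini-Hochberg adjusted p under 0.05. Alternatives changed the filter, the pseudocount, the scaling, the libraries and the variance model, or tested recovered reads with edgeR 4.0.16 and DESeq2 1.42.0. Shares and depth were compared by exact permutation over libraries. The fit was also run on simulated counts with a common spread for all microRNAs, unlike these data. The outcome is not given here and bears on no call. Because the labels call the animals separate samples and say nothing of cultures or batches, p-values measure only the spread between them.

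The comparison, the microRNA lists and most alternatives were chosen with earlier results of these data known. Named microRNAs are all calls, their other arms, neighbours within 10000 bases and seed relatives, the 5 most abundant, the 2 most abundant of each list with its calls, and the microRNAs whose response differed from SS or S2Ba. miR-21-3p, miR-30c-5p, miR-30e-5p, miR-29a-3p, miR-338-5p, miR-9a-5p, miR-142-3p and miR-150-5p were named in addition as list members. Of 484 names 248 matched a RefSeq sequence, among them 19 of the 29 calls. Genes were named from RefSeq GRCr8.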

Additional observations from a re-analysis of the deposited data

Results flagged for a closer look

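Single animals stood apart within 12 of 144 groups of 6 values tested by Dixon's ratio (8.33%), where chance gives about 1 in 20. Normal-salt replicate 5 was far above the rest for miR-451-5p (59.3 nRPM against 5.07 to 7.05), miR-144-3p (6.30 against 0.598 to 1.13), miR-148b-3p (292 against 81.9 to 124), miR-31a-3p (18.7 against 11.9 to 13.6) and miR-n220 (19.2 against 4.95 to 9.93). Normal-salt replicate 2 was high for miR-21-5p (4587 nRPM against 2391 to 2618) and miR-221-3p (269 against 156 to 190.0). Normal-salt replicate 6 was high for miR-126a-5p (2335 nRPM against 1162 to 1394). Among the high-salt animals, replicate 1 was high for miR-138-5p (44.4 nRPM against 6.22 to 20.3) and miR-451-5p (11.4 against 1.96 to 3.32), replicate 6 was high for miR-203a-3p (14.8 against 7.49 to 9.75), and replicate 5 was low for miR-181b-5p (1141 against 1389 to 1532).

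The responses of S2Bb and SS to high salt differed in limma's test of the difference for miR-204-5p (-1.40) and miR-196b-5p (3.07), both on the log2 scale.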

How the results depend on the processing

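No call in S2Bb changed direction in the 24 alternative fits. The number of calls, 29, became 12 with libraries rescaled to equal totals and 13 without high-salt replicates 2 and 3. It was 21 with no filter on level, 24 for a mean of at least 10 nRPM, 29 and 27 with pseudocounts of 0.25 and 5, 33 with RLE scaling, 33 with the S2Bb libraries alone, 29 without the intensity trend, 37 without SS high-salt replicate 2, 35 with edgeR and 41 with DESeq2. Leaving out 1 S2Bb library at a time gave 18 to 31. The difference from SS, 2 calls, became 1 with no filter, 1 with a pseudocount of 5, 0 without high-salt replicates 2 and 3, and 8 with DESeq2. It was 1 without SS high-salt replicate 2 and 1 to 2 over the S2Bb libraries left out in turn. The difference from S2Ba, 0 calls, became 1 with DESeq2 and was 0 with each library left out. The diet difference in the share of miR-143-3p, 0.487 percentage points, ranged from -0.661 (without normal-salt replicate 4) to 1.29 (without normal-salt replicate 3) with 1 library left out. Its share of recovered reads is the same as its share of signal. The depth difference, -7.18 M reads, stayed negative, and its exact p passed without normal-salt replicate 5 or high-salt replicate 1 (0.00433 and 0.039) and not in the other 10 fits. The cause of these shifts was not tested.

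No paired analysis was possible because the labels give animal numbers and no replicate number that groups share. Depth limits rare microRNAs, since 3 reads amount to 0.0769 to 0.212 nRPM in S2Bb and counting error alone is covered by that figure. The normalization behind the table is unknown. With libraries rescaled to equal totals, 3 of the 17 lower calls passed, and the median change of all 17 was -0.56 against -0.69 as deposited.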
